A study of Drosophila melanogaster with 16 samples.

Results

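The genes described here are the translation factors and aminoacyl-tRNA synthetases of Drosophila S2 cells, chosen by name from the symbols deposited with the data. Every gene whose symbol begins with eIF, Aats-, Ef1, eEF or eRF was taken, which gave 54 of the 9977 genes of the count table. The symbols are those in use when the data were deposited, so that translation genes that then carried a CG number or another name are not among the 54. Of the 54 genes, 50 had enough counts to be tested.

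Poly(A) RNA was sequenced from S2 cells, an established cell line of embryonic origin with features of hemocytes, after RNA interference. One set of 3 libraries came from cells given 40 µg/ml dsRNA against imp, which encodes the RNA-binding protein Imp, and the other set of 3 libraries came from cells given the same dose of dsRNA against luciferase, a gene that flies lack. Both treatments were boosted with more dsRNA and harvested at day 3, and no libraries of cells without dsRNA enter the comparison. The replicates were made on different days, so that replicates with the same number formed a pair.

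Protein synthesis begins when eIF2 brings the initiator tRNA to the small ribosomal subunit, eIF3 organises the complex, and eIF4F recruits the mRNA by its cap. Elongation factor eEF1 then delivers each charged tRNA to the ribosome, and eRF1 releases the finished chain at a stop codon. The synthetases attach each amino acid to its tRNA, and separate nuclear genes serve the cytosol and the mitochondrion in many cases. In the present annotation 6 of the 21 synthetase genes carry a mitochondrial name. For Aats-leu, Aats-met, Aats-phe, Aats-pro and Aats-ser the deposited symbol does not show it. The other 15 carry no such name and are called cytosolic here. Whether any of the 15 also serves the mitochondrion was not examined. The same annotation names eIF-5A as an elongation factor and lists eIF4AIII, the helicase of the exon junction complex, without a translation factor name.

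The libraries held between 1081882 and 5463535 counts. The Imp transcript stood at 233, 324 and 455 CPM in the imp dsRNA libraries of replicates 1, 2 and 3, against 660, 738 and 814 CPM in the luciferase dsRNA libraries, where CPM are counts scaled to library size by the TMM method. The log2 fold change of Imp was -1.18 (standard error 0.18), with an adjusted p of 0.113 by the quasi-likelihood test of edgeR, adjusted by Benjamini-Hochberg over 6526 genes. The adjusted p for Imp by edgeR was 0.987 without replicate 1 and 0.999 without replicate 2, at log2 fold changes of -1.02 and -1.17, and 1.57e-12 without replicate 3, at -1.35. By DESeq2 with the replicate block it was 0.00018, at -1.16. Among 8 S2 and hemocyte markers with a count, 6 had a mean of 10 CPM or more, and among 6 markers of other cell types 1 did, the neuronal gene elav. Of the former, eater did so through replicate 3, at 29.8 and 19.5 CPM after imp and luciferase dsRNA, and had 3.21 to 6.49 CPM elsewhere. He and Hml stood lower, and NimC1, also listed, was not among the genes counted.

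The 54 transcripts took between 3.53% and 4.22% of the counts in the imp dsRNA libraries, against 3.61% to 4.66% in the luciferase dsRNA libraries. A single gene, Ef1alpha48D, accounted for 1.74% to 2.23% of all counts after imp dsRNA and for 1.79% to 2.73% after luciferase dsRNA. Levels of different genes were compared only per kilobase of exon. On that scale the 50 transcripts ran from 3.67 ± 1.73 CPM per kilobase for Aats-met to 8470 ± 1516 for Ef1alpha48D after imp dsRNA, and from 4.28 ± 0.445 for Aats-met to 8550 ± 2606 for Ef1alpha48D after luciferase dsRNA (SD, n = 3 each). On coding length in place of exon length the lowest was Aats-leu in both treatments.

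**Figure D1:**
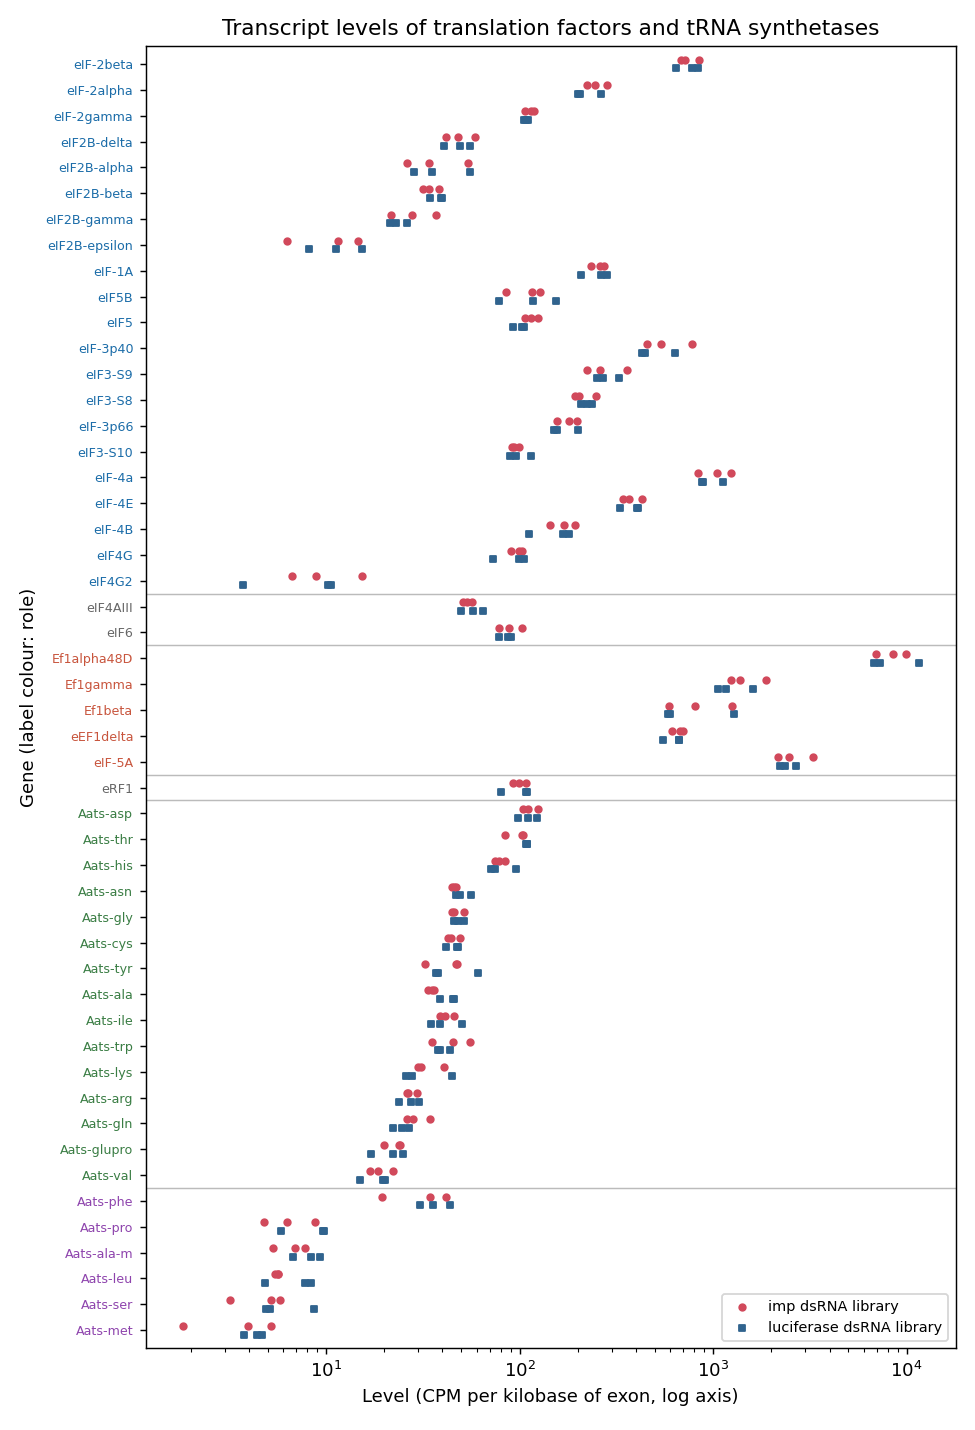
Level of each of the 50 tested transcripts in CPM per kilobase of exon (log axis), with 1 point per library, red circles for imp dsRNA and blue squares for luciferase dsRNA, and labels coloured by role. Elongation factors stood at the top and 5 of the 6 mitochondrial synthetases near the bottom, and the points of the 2 treatments were separate for eIF5, Aats-ala and Aats-thr only.

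The elongation factors held 4 of the 5 highest levels per kilobase. Ef1alpha48D encodes the GTPase subunit eEF1A that carries the charged tRNA. It was followed by eIF-5A, which eases peptide bond formation at difficult sequences, at 2633 ± 582 CPM per kilobase after imp dsRNA and 2416 ± 238 after luciferase dsRNA (SD, n = 3 each). Ef1gamma, a structural subunit of the exchange factor that recycles eEF1A, stood at 1370, 1241 and 1873 CPM per kilobase in the imp dsRNA libraries, against 1606, 1066 and 1162 in the luciferase dsRNA libraries. Ef1beta, a subunit that catalyses the exchange, stood at 882 ± 338 CPM per kilobase after imp dsRNA and 824 ± 403 after luciferase dsRNA (SD, n = 3 each). The remaining subunit, eEF1delta, was the lowest of the complex at 661 ± 43.8 after imp dsRNA and 627 ± 63.8 after luciferase dsRNA (SD, n = 3 each). The levels of Ef1beta and eEF1delta did not differ beyond their spread.

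Within the initiation complexes the subunit transcripts were unequal, and the order of the extremes was the same after either dsRNA. Of the 3 subunits of eIF2, eIF-2beta was highest at 750 ± 87.8 CPM per kilobase after imp dsRNA and 751 ± 96.6 after luciferase dsRNA, and eIF-2gamma, which binds the initiator tRNA, was lowest at 114 ± 5.95 and 108 ± 2.65 (SD, n = 3 each). This was a 6.6-fold difference between genes after imp dsRNA and a 6.94-fold difference after luciferase dsRNA. The exon sequence of eIF-2gamma is shared for 16% of its length with Su(var)3-9 on the same strand, so that its count is uncertain. Of the 5 subunits of eIF2B, the exchange factor that reloads eIF2 with GTP, eIF2B-delta was highest at 49.6 ± 8.82 after imp dsRNA and 48.5 ± 7.5 after luciferase dsRNA (SD, n = 3 each). The catalytic subunit eIF2B-epsilon was lowest at 10.9 ± 4.29 CPM per kilobase after imp dsRNA and 11.6 ± 3.65 after luciferase dsRNA (SD, n = 3 each). All 5 subunits of eIF2B were below all 3 subunits of eIF2 in mean level per kilobase after either dsRNA.

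In eIF3 the transcript of eIF-3p40 (eIF3h in the present annotation) was highest at 590 ± 166 CPM per kilobase after imp dsRNA and 502 ± 116 after luciferase dsRNA, and eIF3-S10 (eIF3a), the largest scaffold subunit, was lowest at 94.8 ± 4.55 and 99.9 ± 13.2 (SD, n = 3 each). In eIF4F the helicase eIF-4a reached 1041 ± 205 after imp dsRNA and 967 ± 143 after luciferase dsRNA, and the scaffold eIF4G reached 97.3 ± 6.36 and 92.2 ± 17.2 (SD, n = 3 each). The cap-binding subunit eIF-4E lay between them, at 379 ± 43.9 and 381 ± 44.7 CPM per kilobase (SD, n = 3 each). The fold between eIF-4a and eIF4G was 10.7 after imp dsRNA on exon length and 19.3 on coding length, so its size depends on which length is used. The ranges of the other complexes moved less and their extreme subunits stayed the same.

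The cytosolic synthetases spanned a 5.91-fold range of levels per kilobase after imp dsRNA and a 6.07-fold range after luciferase dsRNA. In the imp dsRNA libraries their median was 42.3 CPM per kilobase, against 43.3 in the luciferase dsRNA libraries, with Aats-asp highest at 113 ± 10.5 and 111 ± 12.2 and Aats-val lowest at 19.2 ± 2.78 and 18.3 ± 2.88 (SD, n = 3 each). The median level of the 6 mitochondrial synthetases was 6.11 CPM per kilobase in the imp dsRNA libraries, against 7.57 in the luciferase dsRNA libraries. Of these 6 only Aats-phe, at 31.9 ± 11.3 after imp dsRNA and 36.7 ± 6.69 after luciferase dsRNA (SD, n = 3 each), reached the range of the cytosolic enzymes. The ratio of the cytosolic to the mitochondrial median was 6.8, 7.38 and 6.94 in the imp dsRNA libraries, against 5.59, 6.15 and 6.5 in the luciferase dsRNA libraries. The ratios after imp dsRNA were all above those after luciferase dsRNA, by a margin of less than the range within the luciferase dsRNA libraries, and the difference was not tested.

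The 4 transcripts that were not tested were at the limit of detection. eIF4E-5 and eIF4E-7, relatives of the cap-binding protein, had 1 count each over all 6 libraries, in luciferase dsRNA replicate 3. eIF4E-6 had 7, 1 and 0 counts in imp dsRNA replicates 1, 2 and 3, against 3, 5 and 0 in the luciferase dsRNA libraries. Ef1alpha100E, the second eEF1A gene of the fly, had 8, 1 and 2 counts after imp dsRNA, against 7, 6 and 4 after luciferase dsRNA. A count of 0 allowed a level of up to 0.541 to 2.71 CPM, depending on the depth of the library and with only counting error considered. Ef1alpha100E encodes nearly the same protein as Ef1alpha48D, so that the division of reads between them is uncertain.

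The comparison of imp dsRNA with luciferase dsRNA addressed whether depletion of Imp altered the abundance of mRNAs. None of the 50 transcripts passed the test. By edgeR's quasi-likelihood test 0 of 50 had an adjusted p under 0.05, where 0% of the 6526 genes tested passed, and 0 of 50 had an unadjusted p under 0.05, where 2.88% of all genes did. DESeq2 with the replicate block and limma-voom also called 0 of them, and over all genes they called 1, Imp itself, and 0. The smallest adjusted p of the 50 was 0.999 by edgeR. The estimates were 27 above 0 and 23 below 0, where 48.5% of all genes were above 0. The median log2 fold change was 0.016 beside -0.0067 over all genes, and the estimates ranged from -0.42 to 0.40. Their median size without sign was 0.10 with a median standard error of 0.18, against 0.13 and 0.21 over all genes, and for 36 of the 50 the standard error was larger than the estimate. A log2 fold change of 0.3 or more in either direction was estimated for 4 of the 50, where the share over all genes was 16.6%. The 95% intervals lay within a log2 change of 1 in either direction for 48 of the 50 and within 0.5 for 24, and the widest bounds were -1.03 for Aats-pro and 0.84 for eIF4G2. These counts of standard errors and intervals were not taken over all genes, and they describe precision only. In bulk RNA a change in the share of cells that express a gene and a change in its RNA per cell cannot be told apart. A change in cell number or in total RNA per cell is not seen in levels scaled to library size.

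**Figure D2:**
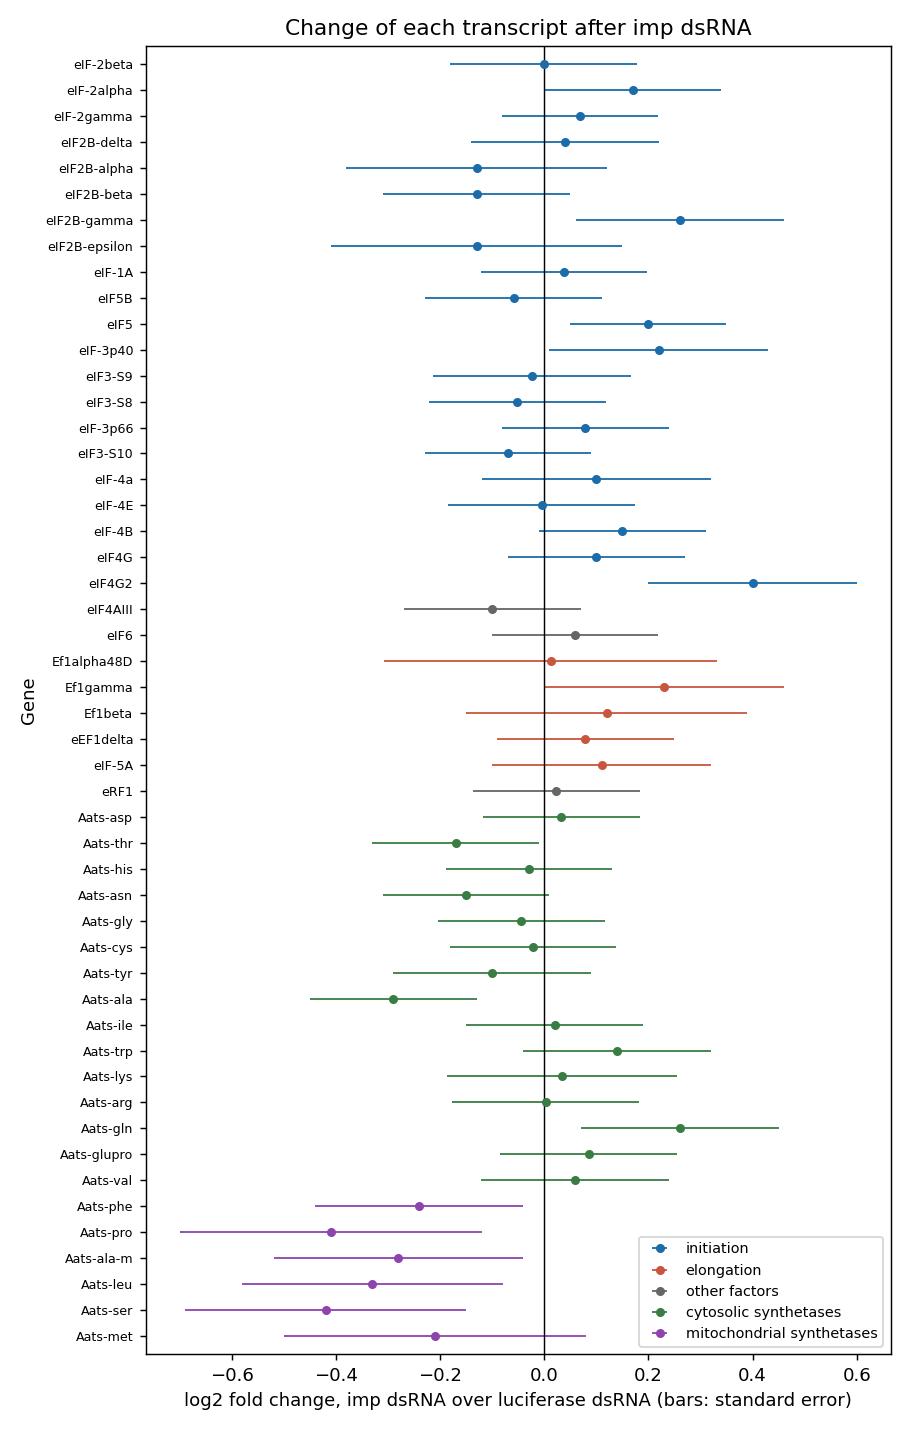
Log2 fold change of each of the 50 transcripts in imp dsRNA over luciferase dsRNA, with the standard error as a bar, in the same order as the plot of levels and coloured by role. Most bars cross 0, the values run from -0.42 to 0.40, and all 6 mitochondrial synthetases lie left of 0.

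Among the initiation factors 12 of 21 estimates were above 0 (48.5% of all genes) and 9 were below, with a median of 0.04. eIF4G2, a germline-enriched relative of the scaffold eIF4G, had the smallest p of the transcripts that were higher after imp dsRNA. It stood at 60.6, 139 and 80.8 CPM in imp dsRNA replicates 1, 2 and 3, against 33.8, 96.0 and 93.5 CPM in the luciferase dsRNA libraries. The groups overlapped, since the imp dsRNA library was higher in pairs 1 and 2 and lower in pair 3. The log2 fold change was 0.40 (standard error 0.20, unadjusted p = 0.0746, adjusted p = 0.999 by edgeR). It was 0.17 without replicate 1 and 0.32 without replicate 2, with adjusted p-values of 0.987 and 0.999 by edgeR. Without replicate 3 it was 0.68, with an adjusted p of 0.0308 by edgeR, in a fit where 0.878% of all genes were called. The gene lies on chromosome arm 3R between 23808285 and 23819237 of the BDGP6 assembly, and 8.56% of its exon sequence is shared with CG33111 on the same strand.

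eIF5, the GTPase-activating protein of eIF2, was the only transcript of the 50 whose imp dsRNA libraries were all above the luciferase dsRNA libraries. Over all genes 2.8% showed that order. eIF5 had 399, 365 and 344 CPM after imp dsRNA, against 329, 339 and 295 CPM after luciferase dsRNA. The log2 fold change was 0.20 (standard error 0.15, unadjusted p = 0.212 by edgeR) and did not pass the test. In the BDGP6 annotation 80.8% of the exon sequence of eIF5 is shared with CG46312 on the same strand, so the count cannot be ascribed to eIF5 alone.

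eIF2B-gamma stood at 42.9, 33.4 and 57.3 CPM after imp dsRNA, against 40.7, 32.9 and 35.5 CPM after luciferase dsRNA. It was higher in all 3 pairs, but by a margin that was small in pairs 1 and 2, and the groups overlapped (log2 fold change 0.26, standard error 0.20, unadjusted p = 0.23 by edgeR). eIF-3p40 had 805, 683 and 1159 CPM after imp dsRNA, against 952, 640 and 662 CPM after luciferase dsRNA. Here the highest and the third highest values belonged to imp dsRNA replicates 3 and 1, and luciferase dsRNA replicate 1 lay between them, which gave a log2 fold change of 0.22 (standard error 0.21, unadjusted p = 0.324 by edgeR). The cap-binding and scanning factors that the rule for named genes listed were close to 0. eIF-1A, which opens the small subunit for scanning, had a log2 fold change of 0.038 with a 95% interval from -0.30 to 0.37. eIF-4E had -0.0051 with an interval from -0.39 to 0.38, and eIF4G had 0.10 with an interval from -0.27 to 0.46. Each interval included 0 and left room for changes of moderate size in both directions.

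All 5 elongation factor estimates were above 0, with values from 0.012 for Ef1alpha48D to 0.23 for Ef1gamma, and none passed the test. Without replicate 3 all 5 were below 0, from -0.36 for Ef1beta to -0.0046 for Ef1gamma. Among all 905 tested genes with a mean of at least 200 CPM, the range in which these 5 lie, 608 estimates were above 0 and 297 below. Ef1alpha48D had 21054, 17048 and 24511 CPM after imp dsRNA, against 28451, 16788 and 17964 CPM after luciferase dsRNA. Luciferase dsRNA replicate 1 was the highest of the 6 libraries and imp dsRNA replicate 3 was the next, so the treatments overlapped. For the release factor eRF1 the estimate was 0.023, and for eIF6, which keeps the large ribosomal subunit from joining too early, it was 0.059. Neither passed the test. The 3 transcripts that were higher in all 3 pairs (background 11.3% of all genes) were eIF6, eIF5 and eIF2B-gamma. For eIF6 the levels were nearly equal in pairs 1 and 3, with log2 ratios of 0.00062 and 0.0019, and the ratio in pair 2 was 0.18.

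Among the cytosolic synthetases 8 of 15 estimates were above 0 (48.5% of all genes) and 7 below, with a median of 0.0028. Aats-ala, the alanyl-tRNA synthetase, had the smallest p of the transcripts that were lower after imp dsRNA. It had 119, 111 and 115 CPM in imp dsRNA replicates 1, 2 and 3, against 127, 148 and 151 CPM in the luciferase dsRNA libraries. All imp dsRNA libraries were below all luciferase dsRNA libraries, as they were for Aats-thr and for 3.39% of all genes. The log2 fold change of Aats-ala was -0.29 (standard error 0.16, unadjusted p = 0.0888, adjusted p = 0.999 by edgeR). The gene lies on chromosome arm 2L between 8378262 and 8381764 of the BDGP6 assembly. Aats-thr had 297, 302 and 243 CPM after imp dsRNA, against 312, 317 and 315 CPM after luciferase dsRNA (log2 fold change -0.17, standard error 0.16). In replicates 1 and 2 the difference in Aats-thr was slight, and most of it came from imp dsRNA replicate 3. Aats-gln had 69.4, 64.1 and 84.7 CPM after imp dsRNA, against 60.7, 65.5 and 54.5 CPM after luciferase dsRNA, with groups that overlapped by 1 library (log2 fold change 0.26, standard error 0.19, unadjusted p = 0.176 by edgeR). In all, 5 transcripts were lower in all 3 pairs, where 12.2% of all genes were, and these were Aats-ala, Aats-thr, Aats-asn, Aats-pro and eIF2B-beta.

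All 6 mitochondrial synthetase estimates were below 0, from -0.42 for Aats-ser to -0.21 for Aats-met, with a median of -0.30, and none passed the test. Over all genes tested, 3364 of 6526 estimates were below 0. Among the 26 tested transcripts with a mean under 200 CPM, these 6 included, 15 were below 0 and 11 above. Without replicate 3 the estimate for Aats-met was 0.11. Aats-ser had 14.8, 8.13 and 13.3 CPM after imp dsRNA, against 22.2, 12.5 and 13.1 CPM after luciferase dsRNA (log2 fold change -0.42, standard error 0.27, unadjusted p = 0.143 by edgeR). Its count in imp dsRNA replicate 2 was 9, so that this library gave little precision. Aats-pro had 9.56, 7.22 and 13.3 CPM after imp dsRNA, against 14.9, 8.84 and 14.6 CPM after luciferase dsRNA (log2 fold change -0.41, standard error 0.29). Aats-leu had 17.1, 17.2 and 16.5 CPM after imp dsRNA, against 23.6, 25.3 and 14.6 CPM after luciferase dsRNA (log2 fold change -0.33, standard error 0.25). In each of these the groups overlapped, and for Aats-leu they did so through luciferase dsRNA replicate 3 only. For Aats-phe, whose levels are given with the replicate numbers, the log2 fold change was -0.24 (standard error 0.20). Summed over the 6 genes, the level was 133, 102 and 140 CPM after imp dsRNA, against 171, 143 and 138 CPM after luciferase dsRNA. The difference was present in pairs 1 and 2, with log2 ratios of -0.36 and -0.49, and absent in pair 3, with 0.02. An exact two-sided sign-flip permutation test over the 3 pairs gave p = 0.5, where the smallest p that 3 pairs allow is 0.25.

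Summed over all 54 genes, the level was 39474, 34473 and 46448 CPM in imp dsRNA replicates 1, 2 and 3, against 48488, 34078 and 35415 CPM in the luciferase dsRNA libraries. The mean log2 ratio of the pairs was 0.037 ± 0.34 (SD, n = 3 pairs), with an exact two-sided sign-flip permutation p of 0.75. The sum was lower after imp dsRNA in pair 1, with a log2 ratio of -0.30, and higher in pair 3, with 0.39, so the spread between pairs was far larger than the mean difference. Without Ef1alpha48D the pattern was similar, with pair ratios of -0.12, 0.011 and 0.33. The elongation factors varied most, at 26759, 22027 and 32186 CPM after imp dsRNA, against 35192, 21576 and 22908 CPM after luciferase dsRNA.

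The pairs of libraries did not agree on direction for most of the genes. In pair 1, 17 of the 50 transcripts were higher after imp dsRNA (49.7% of all genes), with a median log2 ratio of -0.14. In pair 2, 21 of 50 were higher (50% of all genes), with a median of -0.027. In pair 3, 36 of 50 were higher, which is 72%, against 48.8% of all genes, with a median of 0.17. Pairs 1 and 3 thus leaned in opposite directions, and the treatment estimate lies between them. Each ratio rests on 1 library per treatment, and the difference between the pairs was not tested over the genes as a set.

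**Figure D3:**
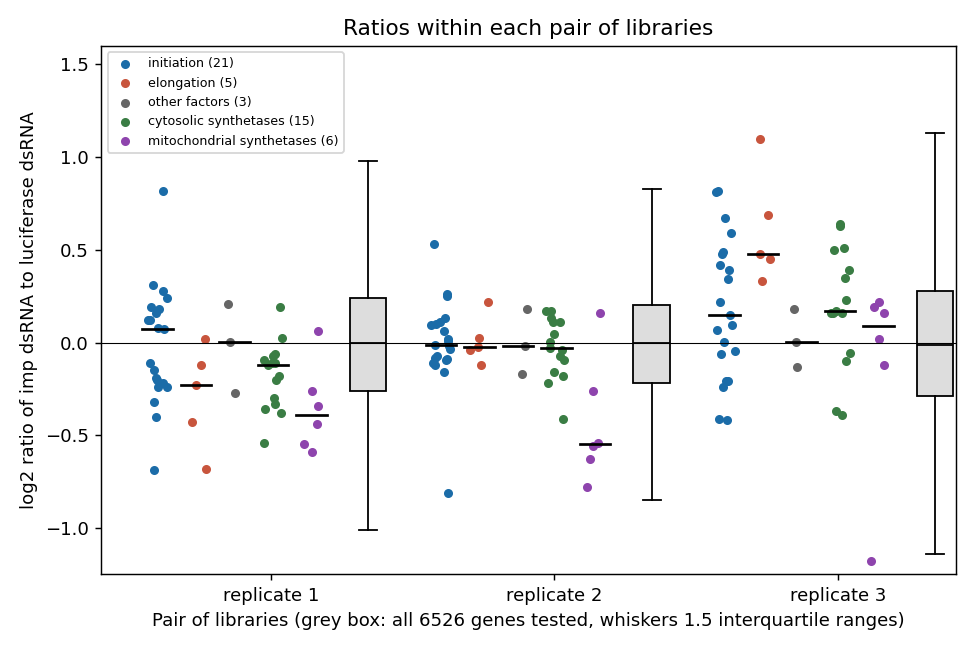
Log2 ratio of imp dsRNA over luciferase dsRNA within each pair of libraries for the 50 transcripts, coloured by role (number of genes in the legend) with black bars at the medians, and a grey box for all 6526 genes tested. All 5 elongation factors lie above 0 in pair 3, and their median is below 0 in pair 1.

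The pair ratios are given here by role, with no test between roles. All 5 elongation factors were higher after imp dsRNA in pair 3, with a median log2 ratio of 0.48, and 1 of the 5 was higher in pair 1, with a median of -0.23. Ef1beta was the extreme case, at 774, 565 and 1202 CPM in imp dsRNA replicates 1, 2 and 3, against 1239, 575 and 561 CPM in the luciferase dsRNA libraries. The highest levels of Ef1beta were in luciferase dsRNA replicate 1 and imp dsRNA replicate 3, and the other 4 libraries were lower. All 5 named subunits of eIF3 were likewise higher in pair 3 and lower in pair 1, with medians of 0.39 and -0.22. Of the 3 subunits of eIF2, 2 were higher after imp dsRNA in each pair, and eIF-2alpha was lower in pair 1, with a log2 ratio of -0.24, and higher in pair 3, with 0.49. For the cytosolic synthetases 11 of 15 were higher in pair 3 and 2 of 15 in pair 1.

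Transcript length moved with the pair ratios. Over 6372 genes with a known exon length, the log2 ratio of pair 1 had a Spearman correlation of 0.47 with length, that of pair 2 had 0.19 and that of pair 3 had -0.28, and over the 50 transcripts the correlations were 0.23, 0.022 and -0.33. These are correlations across genes that share the same libraries, given as a description. When the trend over length was removed from each library, 16, 24 and 36 of the 50 were higher after imp dsRNA in pairs 1, 2 and 3, with medians of -0.12, -0.019 and 0.26, and the shares over all genes were 51.3%, 51.7% and 49.4%. The part of length in the pair ratios of the 50 transcripts was not tested further. Depth also differed within the pairs, with 5463535 counts after imp dsRNA against 2865083 after luciferase dsRNA in pair 1 and with 1401963 against 2017317 in pair 3, and its part in these ratios was not tested.

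The variation between days was tested in the same fit by the coefficients of the replicate number. By edgeR's quasi-likelihood test 1 of the 50 transcripts differed between replicate numbers at an adjusted p under 0.05, where 3.17% of all genes did, and 3 had an unadjusted p under 0.05, where 14.6% of all genes did. The transcript was eIF4G2, with an adjusted p of 0.0245 by edgeR. Its levels, given above, were lowest in replicate 1 of both treatments, and replicate 2 exceeded replicate 1 by 1.31 (standard error 0.25) on the log2 scale over both treatments. Replicate 3 exceeded replicate 1 by 0.94 on the same scale. With replicate 1 left out the adjusted p by edgeR was 0.677, where 1.14% of all genes were called, and with replicate 2 left out it was 0.0585, where 4.25% were. With replicate 3 left out it was 1.22e-10 by edgeR, where 13.1% were. A count of 93 reads in luciferase dsRNA replicate 1 and of 103 in imp dsRNA replicate 3 set its precision in those libraries.

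The next smallest p between replicate numbers belonged to eIF5B, the GTPase that joins the ribosomal subunits. It had 377, 564 and 510 CPM after imp dsRNA, against 347, 522 and 679 CPM after luciferase dsRNA, and was lowest in replicate 1 of both treatments (unadjusted p = 0.0125, adjusted p = 0.183 by edgeR). eIF-4B, an RNA-binding cofactor of the helicase eIF-4a, had 370, 326 and 275 CPM after imp dsRNA, against 324, 347 and 216 CPM after luciferase dsRNA, and was lowest in replicate 3 of both (unadjusted p = 0.0441, adjusted p = 0.324 by edgeR). Aats-phe had 52.5, 29.8 and 63.5 CPM after imp dsRNA, against 66.9, 46.6 and 54.5 CPM after luciferase dsRNA, and was lowest in replicate 2 of both (unadjusted p = 0.0542 by the edgeR test). Aats-tyr had 82.9, 57.8 and 83.9 CPM after imp dsRNA, against 108, 67.5 and 65.7 CPM after luciferase dsRNA, and its lowest library was replicate 2 after imp dsRNA and replicate 3 after luciferase dsRNA (unadjusted p = 0.0593 by the edgeR test). None of these 4 passed the adjusted threshold.

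**Figure D4:**
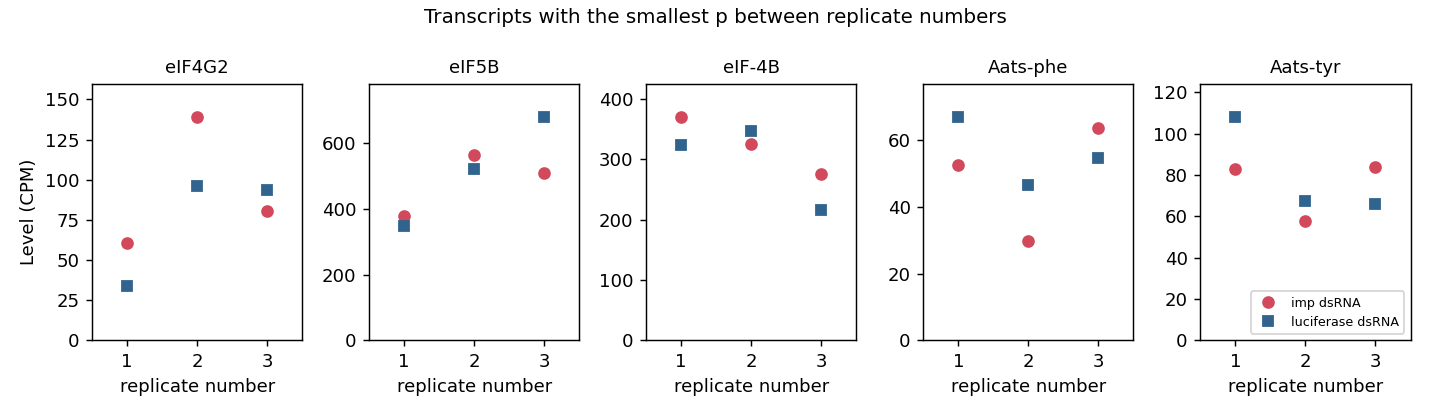
Level in CPM of the 5 transcripts with the smallest p between replicate numbers, by replicate number on the horizontal axis, with red circles for imp dsRNA and blue squares for luciferase dsRNA. eIF4G2 and eIF5B were lowest in replicate 1 of both treatments, eIF-4B was lowest in replicate 3, and the vertical axes start at 0 and differ between genes.

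Within a treatment the spread between libraries was taken over the 50 transcripts only, and not over all genes. The median fold between the highest and the lowest library was 1.29 over the 50 genes after imp dsRNA and 1.32 after luciferase dsRNA. It was over 1.5 for 14 genes after imp dsRNA and for 13 after luciferase dsRNA. The largest fold was 2.88 for Aats-met after imp dsRNA, a gene with 10 counts in replicate 3, and 2.84 for eIF4G2 after luciferase dsRNA.

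No gene passed the adjusted threshold in a list of other genes set beside the 54. The list was drawn up for genes of translation, but it also held Su(var)3-9, which shares exon sequence with eIF-2gamma. Of 32 names listed, 27 were found and tested, with 13 estimates above 0 (48.5% of all genes) and 14 below. The median log2 fold change was -0.013. By edgeR 1 had an unadjusted p under 0.05, where 2.88% of all genes did. This was Unr, an RNA-binding regulator of translation, at 1181, 1299 and 2230 CPM after imp dsRNA, against 1063, 1000 and 1200 CPM after luciferase dsRNA (log2 fold change 0.47, standard error 0.20, unadjusted p = 0.0369, adjusted p = 0.999 by edgeR). The groups overlapped through imp dsRNA replicate 1 and luciferase dsRNA replicate 3, and the value in imp dsRNA replicate 3 was the highest. Ef2b, which encodes the translocation factor eEF2, had 3133, 2963 and 4534 CPM after imp dsRNA, against 4326, 2857 and 2657 CPM after luciferase dsRNA. Its highest libraries were imp dsRNA replicate 3 and luciferase dsRNA replicate 1, which were also the highest for Ef1alpha48D, Ef1beta and Ef1gamma but not for eEF1delta. These libraries were the highest for eIF-5A, eIF-4a and eIF-3p40 too, among others, and the share of all genes with that order was not taken. The estimate for pAbp, the poly(A)-binding protein gene, was 0.32 on the log2 scale (standard error 0.26, unadjusted p = 0.241 by edgeR). It had 9794, 9408 and 12642 CPM after imp dsRNA, against 8034, 8049 and 9284 CPM after luciferase dsRNA. The groups did not overlap, and 2.8% of all genes likewise had all imp dsRNA libraries above. Thor, the 4E-BP that sequesters eIF-4E, had -0.28 (standard error 0.16).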

How the data were processed

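The authors mapped reads with BWA to dm3 and deposited the raw read counts per gene, unnormalized, for 3 imp dsRNA and 3 luciferase dsRNA libraries. CASAVA 1.8.2, BWA and DESeq are named in the submitters' processing notes. Versions for BWA and DESeq: not given in the sources used here. A deposited table with the authors' own DESeq comparison (group means, fold changes, p-values) was used for gene symbols only. Binding experiments (iCLIP, PAR-iCLIP and RIP-seq) and their inputs were not analysed here. The row that names no gene held 0 counts.

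Library totals were 1081882 to 5463535 counts. The count test was edgeR 4.0.16 in R 4.3.3, by the quasi-likelihood method after TMM scaling and filterByExpr, blocked on replicate number, with p-values adjusted over 6526 genes (Benjamini-Hochberg, 0.05). It was also run on simulated data that had the same dispersion for every gene and no trend over length. That run therefore does not cover the length trend seen in these libraries. Each standard error was derived from the F statistic, as the absolute estimate over the root of F. The study's supplement states that the triplicates were made on different days and that its DESeq dispersion estimate took replicates as paired data, so the block was used here. Deviations of same-numbered libraries from their group means correlated at 0.478, 0.363 and 0.304, and libraries of the same treatment were not repeats of one another (chi-square per degree of freedom 6.38 to 27.6). Nothing states whether the replicates came from separately kept cell stocks, so p-values measure the spread between these libraries. Pair ratios used a pseudocount of 1 CPM. Those with the trend over length removed came from log2 CPM with a prior count of 2, so they differ from the others in more than the length trend. Sums over genes were tested by exact sign-flip permutation (SciPy 1.17.1). Exon lengths and overlaps came from BDGP6, a later assembly than dm3, in which 51 of the 54 genes matched by identifier and 3 by a RefSeq synonym.

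The genes described and the lists were chosen with earlier results of these data known. Full statistics are given for Imp, for the 5 genes that were higher and the 5 that were lower with the smallest p, for the 5 with the smallest p between replicate numbers, for the 5 with the highest level per kilobase, for the extreme subunits of each complex, and for eIF-1A, eIF-4E and eIF4G. eIF5, Aats-thr, Aats-asn, eIF2B-beta, eIF6, Aats-met and Ef1beta are also named for their order across libraries, after their values were seen. The alternatives were a fit without the replicate block, scaling by DESeq2 size factors, no filter, at least 10 counts in every library, DESeq2 1.42.0 with and without the block, limma-voom (limma 3.58.1), each replicate number left out, other scalings of the sums, other transcript lengths, and, chosen after seeing the data, removal of a trend over transcript length.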

Additional observations from a re-analysis of the deposited data

How the results depend on the processing

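The count of 0 transcripts called between treatments was the same without the replicate block, with DESeq2 size factors, with a minimum of 10 counts in every library, by DESeq2 and by limma-voom, and ran from 0 to 1 when each replicate number was left out, with eIF4G2 called without replicate 3, where the edgeR test called 58 of 6609 genes. The count at an unadjusted p under 0.05, which was 0, became 1 with no filter, where 2.89% of all genes were under it. It ran from 0 to 5 over the left-out replicates, the 5 without replicate 3, where 12.9% of all genes were. The count called between replicate numbers, which was 1, became 2 with no filter (Ef1beta and eIF4G2), where 5.34% of all genes were called. It ran from 0 to 6 over the left-out replicates, the 6 without replicate 3, where 13.1% of all genes were called. Without the replicate block, that is without the pairing by day, the median log2 fold change was 0.0073 and Imp stood at -1.13 (adjusted p = 1 by edgeR). Imp ran from -1.35 to -1.02 over the left-out replicates and passed the threshold at -1.18 with no filter (adjusted p = 2.98e-06 by edgeR), at -1.16 by DESeq2 with the block (adjusted p = 0.00018) and at -1.12 with the length trend removed (adjusted p = 0.0145 by edgeR). The median log2 fold change ran from -0.076 to 0.074 over the left-out replicates. The median level per kilobase after imp dsRNA was 66.4 on exon length and 86.2 on coding length. Of the 50 transcripts 32 had an estimate of the other sign under at least 1 alternative, and 18 did not. Causes were not tested. The shallowest library held 1081882 counts, which limits precision for weakly expressed genes. With 3 pairs the exact test of a sum cannot go below 0.25, and the fit has 2 residual degrees of freedom from the 6 libraries.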

Other observations

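The present annotation gives a translation factor or synthetase name to 31 further genes that carried another symbol when the data were deposited. Of these, 29 were tested. 4EHP, Adam, Ef2b, Elf, Int6 and Trip1 were also in the list of other genes above, so the lists overlap. The median log2 fold change of the 29 was -0.049, with 10 estimates above 0 (48.5% of all genes) and 19 below. By edgeR 0 had an adjusted p under 0.05, where 0% of all genes did. An unadjusted p under 0.05 by edgeR was found for 1, where 2.88% of all genes had it. That gene, named after its value was seen, was CG5642, now eIF3l, a peripheral subunit of eIF3. It had 162, 181 and 188 CPM in imp dsRNA replicates 1, 2 and 3, against 294, 231 and 265 CPM in the luciferase dsRNA libraries. The groups did not overlap, and 3.39% of all genes likewise had all imp dsRNA libraries below. The log2 fold change of CG5642 was -0.58 (standard error 0.16, unadjusted p = 0.00349, adjusted p = 0.999 by edgeR). Over the 8 tested eIF3 genes of this kind, CG5642 included, 5 estimates were below 0 and 3 above, and among the latter was Trip1, now eIF3i, at 0.36 (standard error 0.20). Tango7, now eIF3m, had 263, 191 and 326 CPM after imp dsRNA, against 385, 202 and 202 CPM after luciferase dsRNA. Its highest values were in luciferase dsRNA replicate 1 and imp dsRNA replicate 3, as for Ef1alpha48D, Ef1beta, Ef1gamma and others.

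The 9 mitochondrial synthetases that bear this name only in the present annotation had 2 estimates above 0 (48.5% of all genes) and 7 below. Their median log2 fold change was -0.084 beside -0.30 for the 6 described in the report. The largest estimates among the 9 were -0.46 for CG10092 (standard error 0.30) and 0.51 for CG8257 (standard error 0.34), and none passed the test by edgeR. The median level of the 9 was 6.24 CPM per kilobase after imp dsRNA and 5.33 after luciferase dsRNA. The highest of them, CG31739 (now AspRS-m), stood at 24.6 and 25.6, within the range of the cytosolic enzymes described in the report. The 4 further cytosolic synthetases had medians of 22.9 CPM per kilobase after imp dsRNA and 23.5 after luciferase dsRNA.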
